A study of Mus musculus and Acomys cahirinus with 84 samples.

Results

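Passaging lifts cultured cells from their dish and replates them at lower density, and the comparison described here set A. cahirinus cultures labelled untreated and passaged against cultures labelled only untreated. It covered 8 of the 84 libraries of the series: 4 libraries of passaged and 4 of untreated cells of the African spiny mouse, Acomys cahirinus, all given a time of 12 d. The groups were taken from the sample titles, and no measured value entered the choice. The other libraries of the series came from mice labelled C56BL6 and from wild mice, and from irradiated (10 or 20 Gy) or 24 h cultures. All 8 cultures were unirradiated, carried the same batch label and were labelled as primary skin fibroblasts, and their poly(A) RNA was sequenced as stranded mRNA libraries. The labels give no day of splitting, no number of passages, no cell density and no sex or age of the animals. In the count table the column names of the untreated libraries carry the 12 d, whereas those of the passaged libraries carry no time, so for the latter the time rests on the titles. Replicate numbers 1 to 4 occur in both groups, and for each number both library names hold the same code, which is why the libraries were compared within 4 pairs.

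A culture that is kept becomes crowded, and normal fibroblasts then leave the cell cycle, raise inhibitors of cyclin-dependent kinases (CDKs) and lay down matrix. Splitting such a culture removes the contacts between cells, and cells that can still divide return to DNA replication and mitosis. Skeletal myoblasts, the dividing precursors of muscle fibres, respond to crowding and low serum in another way: they leave the cycle, fuse and switch on the proteins of contraction.

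The counts were made without a strand setting per the file headers, so a gene and an antisense or overlapping neighbour cannot be told apart. The p-values measure the spread between these pairs. Each pair has its own code in the library names, and that a code stands for a separate animal is a reading of these names. The 8 libraries held 25.6 to 34.5 M counts, with 14872 to 15222 genes detected. Levels are given as normalised CPM, that is, counts scaled to a common library size and for composition, and 3 counts correspond to 0.0874 to 0.115 CPM in these libraries. In a principal component analysis, component 1 (48.6% of the variance) separated the groups and component 2 (31.1%) set both replicate 2 libraries apart from the other 6. The passaged and untreated libraries of replicate 2 lay at -50.7 and -46.3 on component 2, and the others between 7.92 and 30.

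The labelled cell type was checked against marker genes. Collagen transcripts typical of fibroblasts were abundant, with Col1a1 at 6826 to 10903 CPM of total counts, but the regulators and contractile proteins of skeletal muscle were abundant too. Myod1 and Myog, transcription factors that set up the muscle lineage, stood at 64.1 to 185 and 289.7 to 715, Pax7 of muscle stem cells at 23.7 to 82.8, and the embryonic myosin Myh3 at 483 to 3311 CPM of total counts. In the 16 unirradiated mouse libraries of 12 d the same 4 genes did not exceed 0.226. The fibroblast receptor Pdgfra had the reverse order, with 14.4 to 65.5 in the 8 A. cahirinus libraries and 168 to 1593 in the 16 mouse libraries. Muscle transcripts were present in all 28 A. cahirinus libraries of the series (Myog 164 to 1067), so they belong to both groups compared here. For this reason the samples are called A. cahirinus cultures below.

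Markers of other cells of skin were low in all 8 libraries beside those of fibroblasts and muscle, but some differed between the groups. The summed level of 9 keratinocyte genes was 4.95 to 14 normalised CPM in untreated and 3.01 to 11.1 in passaged libraries, with Krt15 at 0 throughout. The 8 endothelial genes summed to 1.28 to 2.73 and 1.14 to 2.19, the 9 genes of macrophages and other leukocytes to 5.43 to 6.47 and 6.72 to 8.20, and the T cell genes Cd3e and Cd3d and the melanocyte genes Tyr and Tyrp1 were at 0. The 5 adipocyte genes summed to 12.3 to 20.5 in untreated and 2.99 to 7.67 in passaged libraries, and the 6 Schwann cell genes to 4.26 to 6.35 and 5.04 to 9.17. The ranges of the groups did not overlap for the summed adipocyte genes, lower after passage, and the summed leukocyte genes, higher after passage. Of the adipocyte genes 4 stayed under 1 CPM in all 8 libraries. Only 1 of them, Lep, was tested, with a log2 fold change, passaged minus untreated, of -1.76. The 4 leukocyte genes tested went both ways, from -1.65 to 1.67. The part of these genes in the results was not tested. Summed levels of 8 pericyte and smooth muscle genes were 888 to 1680.2 and 835 to 1457, of which the muscle filament gene Des made up the most. These are bulk samples, in which fewer cells of a type and less RNA per cell cannot be told apart.

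Passaged and untreated A. cahirinus cultures differed in many genes, most by less than 2-fold. Of 12992 genes tested, 6431 (49.5%) passed an adjusted p of 0.05 in edgeR's quasi-likelihood test with replicate pairs as a block and Benjamini-Hochberg adjustment. Of all genes tested, 3014 (23.2%) were higher and 3417 (26.3%) lower in passaged cultures. Changes of at least 2-fold were more often falls, with 318 genes (2.45%) higher and 824 (6.34%) lower. Without the pairing as a block 3348 genes (25.8%) passed, 1575 higher and 1773 lower, and all 3348 were among the 6431 with the same direction. Without replicate 3 the genes higher numbered 1953 and those lower 2493. In 3660 genes (28.2%) the 4 passaged libraries lay wholly above or wholly below the 4 untreated ones. The median log2 fold change of all genes tested was -0.0062, and log2 fold changes below are passaged minus untreated from this fit, with adjusted p-values over all genes tested.

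**Figure D1:**
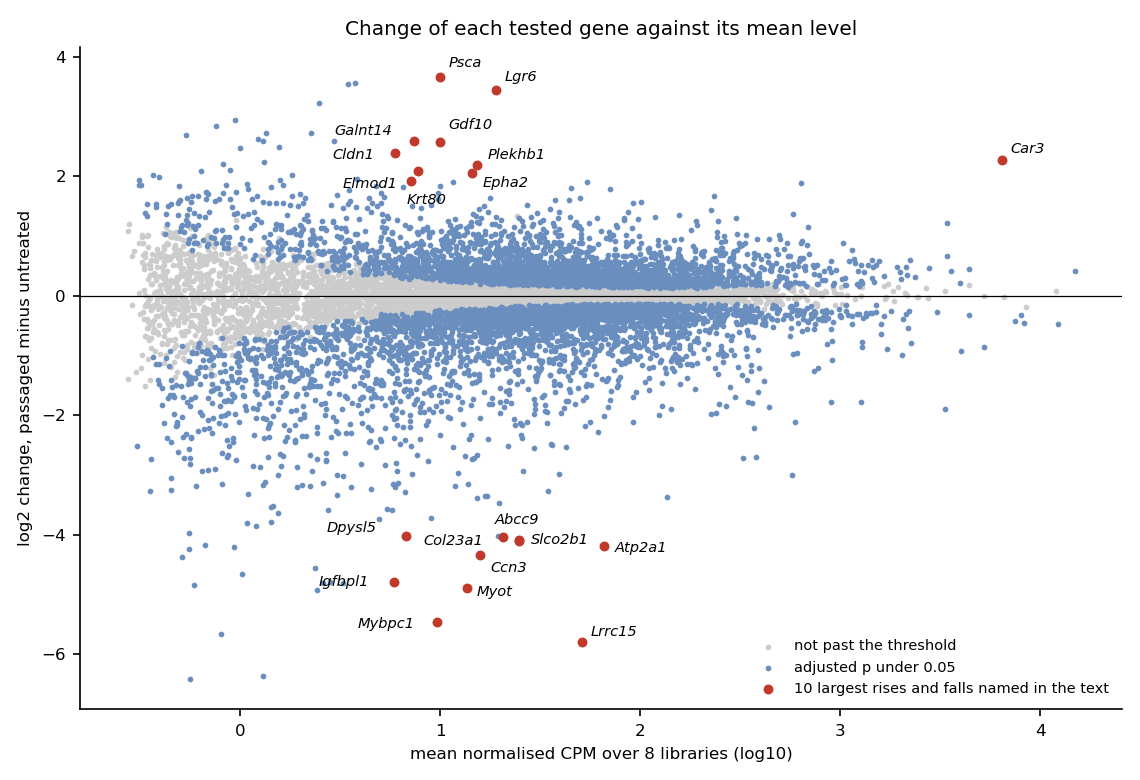
Each point is one of the 12992 genes tested, with its mean normalised CPM over the 8 libraries on the x axis (log10) and its log2 fold change, passaged minus untreated, on the y axis. Blue points passed the threshold, red points are the 10 largest rises and falls named in the text. Falls reach -5.80 (Lrrc15) among the named genes, rises reach 3.66 (Psca), and Car3 is the abundant gene that rose.

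Largest rises and falls were ranked among genes past the threshold that averaged 5 CPM or more and had 1 sign in 4 pairs. Genes with only a model name or ID were skipped. The genes with the largest rises were mostly genes of low level. Psca, a small surface protein anchored by lipid, rose from 1.40, 1.07, 2.11 and 1.37 CPM in untreated replicates 1 to 4 to 20.8, 13.9, 20.2 and 19.5 in passaged replicates 1 to 4, a log2 fold change of 3.66 (SE 0.13 and adjusted p = 2.35e-06). Lgr6, a receptor for R-spondins that marks some epithelial stem cells, rose from 4.88, 2.36, 3.29 and 2.21 to 48.1, 17.4, 38.3 and 36.3, a log2 fold change of 3.44 (SE 0.16 and adjusted p = 5.06e-06). Neither gene's groups overlapped, and replicate 2 was the lowest passaged library for both. Gdf10, a secreted relative of the bone morphogenetic proteins, had a log2 fold change of 2.57 (SE 0.20 and adjusted p = 3.49e-05), and the tight junction gene Cldn1 one of 2.39 (SE 0.32 and adjusted p = 0.000576). The others among the 10 were the glycosyltransferase Galnt14 (2.58), Plekhb1 (2.18), Elmod1 (2.08), the ephrin receptor Epha2 (2.06) and the keratin Krt80 (1.91).

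Car3, a carbonic anhydrase known from slow muscle and fat, combined a large rise with a high level. Its untreated libraries held 2236, 1729.8, 2512 and 2353 CPM and its passaged libraries 11535, 7967, 11638 and 11783 CPM. Every passaged library lay above every untreated one, and the log2 fold change was 2.28 (SE 0.07 and adjusted p = 8.75e-07). Replicate 2 was the lowest library in each group. In the 16 mouse libraries Car3 ranged from 0 to 19.6 CPM of total counts.

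The largest fall by the same rule was in Lrrc15, a surface protein of activated, matrix-producing fibroblasts. Untreated libraries held 54.1, 164, 113 and 73.6 CPM and passaged libraries 0.847, 2.66, 2.66 and 1.13 CPM, a log2 fold change of -5.80 (SE 0.11 and adjusted p = 1.71e-07). Of the 10 largest falls, 3 were skeletal muscle genes: Mybpc1, a myosin-binding protein of slow fibres (-5.46), Myot, a protein of the Z disc (-4.89), and Atp2a1, the calcium pump of fast fibres (-4.19). The others were Igfbpl1 (-4.79), the matricellular gene Ccn3 (-4.34), the membrane collagen Col23a1 (-4.11), the transporter Slco2b1 (-4.09), the potassium channel subunit Abcc9 (-4.04) and Dpysl5 (-4.02). In all 10 the groups did not overlap and the 4 pairs fell, with adjusted p-values of at most 8.12e-05. Passaged replicate 4 held fewer than 3 counts of Mybpc1.

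Genes of mitosis and cytokinesis rose together, beside the 23.2% of all genes that were higher. All 34 tested genes of this list were higher, none was lower, and their median log2 fold change was 0.79. Without the block 27 passed, and without replicate 2 all 34 did. Plk1, the kinase that drives entry into and exit from mitosis (on sequence 17:77310357-77320888 of the AcoCah2 assembly, as coordinates below), stood at 14.6, 18.2, 20.2 and 21.4 CPM in untreated and 48.4, 28.4, 49.1 and 51.4 CPM in passaged libraries. Replicates 1, 3 and 4 rose to similar levels and replicate 2 rose least, yet the groups did not overlap, and the log2 fold change was 1.23 (SE 0.15 and adjusted p = 0.000316). Anln, a scaffold of the cleavage furrow, rose from 68.1 ± 11.3 to 171 ± 33.4 CPM (SD, n = 4), a log2 fold change of 1.31 (SE 0.10 and adjusted p = 3.56e-05). Cdc20, which activates the anaphase-promoting complex, and Prc1, which bundles the spindle midzone, had log2 fold changes that were both 1.18. Mki67, a protein of dividing nuclei, rose from 49, 54.7, 61.5 and 69.9 to 135, 74.9, 106 and 127 CPM, a log2 fold change of 0.89 (SE 0.14 and adjusted p = 0.00105). Top2a, the topoisomerase that untangles chromosomes, had a log2 fold change of 0.74 (SE 0.17 and adjusted p = 0.00844), and without the block its adjusted p was 0.0511.

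The upstream sequences of the mitotic genes Plk1, Cdc20 and Ccnb1 and of Atp2a1 are shown because mitotic genes rose together and Atp2a1 was among the genes that fell most. Ccnb1 belongs to the list of cyclins and their kinases and is not counted in the mitosis list. They are mouse RefSeq sequences of build GRCm38.p6, 200 bases up to the annotated start, read 5′ to 3′ on the gene's strand, and not those of A. cahirinus. Capitals mark 3 motifs on either strand. These are the CCAAT box, the cell cycle homology region, spelled TTTGAA, and an E-box, spelled CAGCTG.
Plk1 (chr7:122159235-122159434, plus strand): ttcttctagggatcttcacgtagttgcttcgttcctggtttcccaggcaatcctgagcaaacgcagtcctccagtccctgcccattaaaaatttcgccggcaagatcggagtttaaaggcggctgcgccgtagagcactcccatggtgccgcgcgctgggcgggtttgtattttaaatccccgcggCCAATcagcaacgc
Ccnb1 (chr13:100786487-100786686, minus strand): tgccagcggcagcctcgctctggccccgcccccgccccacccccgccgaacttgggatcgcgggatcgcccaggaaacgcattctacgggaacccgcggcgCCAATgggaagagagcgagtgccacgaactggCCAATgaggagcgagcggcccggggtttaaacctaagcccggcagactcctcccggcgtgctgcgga
Cdc20 (chr4:118437344-118437543, minus strand): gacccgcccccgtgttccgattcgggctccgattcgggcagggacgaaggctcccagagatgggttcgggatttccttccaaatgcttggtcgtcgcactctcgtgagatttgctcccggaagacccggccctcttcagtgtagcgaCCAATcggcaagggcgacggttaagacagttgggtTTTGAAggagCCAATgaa
Atp2a1 (chr7:126463074-126463273, minus strand): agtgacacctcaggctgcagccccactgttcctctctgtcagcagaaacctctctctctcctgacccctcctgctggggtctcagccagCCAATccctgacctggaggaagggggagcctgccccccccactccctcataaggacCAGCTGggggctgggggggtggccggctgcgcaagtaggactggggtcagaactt
Of the 34 mitosis genes 29 matched an entry, with 31 promoters, and CCAAT was found in 22 of these (71%) against 29.3% of all 32851 promoters of the same length. TTTGAA was found in 12 (38.7%) against 12.5%. Among 30 promoters of DNA replication genes, CCAAT was found in 18 (60%) and TTTGAA in 3 (10%). The 26 matched genes of muscle contraction had 29 promoters, of which 9 (31%) held CAGCTG against 10.9% of all promoters and 8 (27.6%) held CCAAT. A match of letters is a description of the mouse sequence and was not related to binding here.

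DNA replication genes were higher as well, with a smaller median than mitotic ones. Of 33 tested, 22 were higher and none lower, with a median log2 fold change of 0.48, and without the block 9 passed. Without replicate 2, 30 were higher. Orc1, a subunit of the origin recognition complex, rose from 2.87, 3.40, 3.39 and 4.08 to 7.66, 4.53, 7.39 and 6.58 CPM, a log2 fold change of 0.91 (SE 0.18 and adjusted p = 0.00337). Rrm2, the regulated subunit of ribonucleotide reductase, rose from 35, 39, 47.5 and 48.4 to 85.3, 40.1, 101.1 and 97.1 CPM, a log2 fold change of 0.87 (SE 0.18 and adjusted p = 0.00426). Its groups overlapped in passaged replicate 2, which stayed near its untreated partner. The helicase subunit Mcm5 had a log2 fold change of 0.78 (SE 0.17 and adjusted p = 0.00546). Pcna, the sliding clamp of the replication fork, missed the threshold at a log2 fold change of 0.24 (SE 0.10 and adjusted p = 0.0892).

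Repair and chromatin genes that accompany replication rose with it. Of 17 genes of homologous recombination and the Fanconi pathway 13 were higher and none lower (median log2 fold change 0.60), among them Fanci (0.94) and the checkpoint kinase gene Chek1 (0.70). Of 15 genes of chromatin and lamina 9 were higher, among them the histone chaperone Asf1b (0.88) and Uhrf1, which maintains DNA methylation (0.81). Lmnb1, the lamin that is lost in senescent cells, had a log2 fold change of 0.46 (SE 0.14 and adjusted p = 0.0285), and without replicate 1, 3 or 4 its adjusted p was 0.0963, 0.106 or 0.0781. Without the block 8 genes of the first and 4 of the second list were higher, and for Lmnb1 the adjusted p was 0.178.

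Cyclins of S phase and mitosis were higher, and D-type cyclins of G1 were not. The mitotic cyclin Ccnb1 rose from 23.9, 29.8, 31 and 28.5 to 72.6, 44.9, 77.6 and 74.2 CPM, a log2 fold change of 1.23 (SE 0.14 and adjusted p = 0.000291), and all passaged libraries lay above all untreated ones. Ccna2, of S phase and G2, had a log2 fold change of 0.90 (SE 0.14 and adjusted p = 0.00118), with passaged replicate 2 inside the untreated range. Ccnd2 and Ccnd3 fell (-0.34 and -0.47), with adjusted p of 0.595 and 0.127 without the block and 0.0876 for Ccnd2 without replicate 3, and Ccnd1 had a log2 fold change of -0.29 (SE 0.13 and adjusted p = 0.092). Cdk6, a kinase partner of D cyclins, rose from 65.8, 71.1, 47.3 and 64.9 to 133, 101.8, 93.7 and 121 CPM, a log2 fold change of 0.86 (SE 0.08 and adjusted p = 0.000119). Of the 15 cyclin and kinase genes, 6 were higher and 2 lower, against 4 and none without the block.

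Among E2F, RB and DREAM genes, which switch cell cycle genes on and off, repressors were found among both the rises and the falls. Rb1 and Rbl2, which hold E2F factors in check, had log2 fold changes of -0.88 (SE 0.07 and adjusted p = 4.66e-05) and -0.71 (SE 0.06 and adjusted p = 4.13e-05). Foxm1, which activates mitotic genes, rose from 17.5, 19.1, 23.6 and 25.7 to 50.7, 29.1, 45.5 and 49.4 CPM, a log2 fold change of 1.01 (SE 0.13 and adjusted p = 0.000448). The repressors E2f7, E2f5 and Rbl1 rose (0.84, 0.70 and 0.70), and E2f1 had a log2 fold change of 0.20 (SE 0.09 and adjusted p = 0.0961). In all, 8 of 19 were higher and 3 lower.

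CDK inhibitors were mostly lower, beside the 26.3% of all genes that were lower. Of 8 tested, 7 were lower and 1 higher, with a median log2 fold change of -0.59, and 3 were lower without the block. Cdkn1a (p21) (7:4994091-5004665) fell from 973, 698, 854 and 682 to 449, 413, 427 and 355 CPM, a log2 fold change of -0.95 (SE 0.07 and adjusted p = 2.50e-05), and its groups did not overlap. Cdkn2b (p15) fell from 49.98, 63.5, 33.6 and 53.8 to 16.9, 30.8, 17.7 and 26.7 CPM, a log2 fold change of -1.13 (SE 0.10 and adjusted p = 8.13e-05). Cdkn2a and Cdkn1c had log2 fold changes of -0.82 (SE 0.10 and adjusted p = 0.000347) and -0.82 (SE 0.12 and adjusted p = 0.000726), and both fell in each pair. Their groups overlapped, with adjusted p of 0.0611 and 0.081 without the block. Cdkn1b (p27) had a log2 fold change of -0.35 (SE 0.07 and adjusted p = 0.00343). The member that rose was Cdkn3 (0.69), a phosphatase of mitotic cells and not an inhibitor of the INK4 or CIP families.

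**Figure D2:**
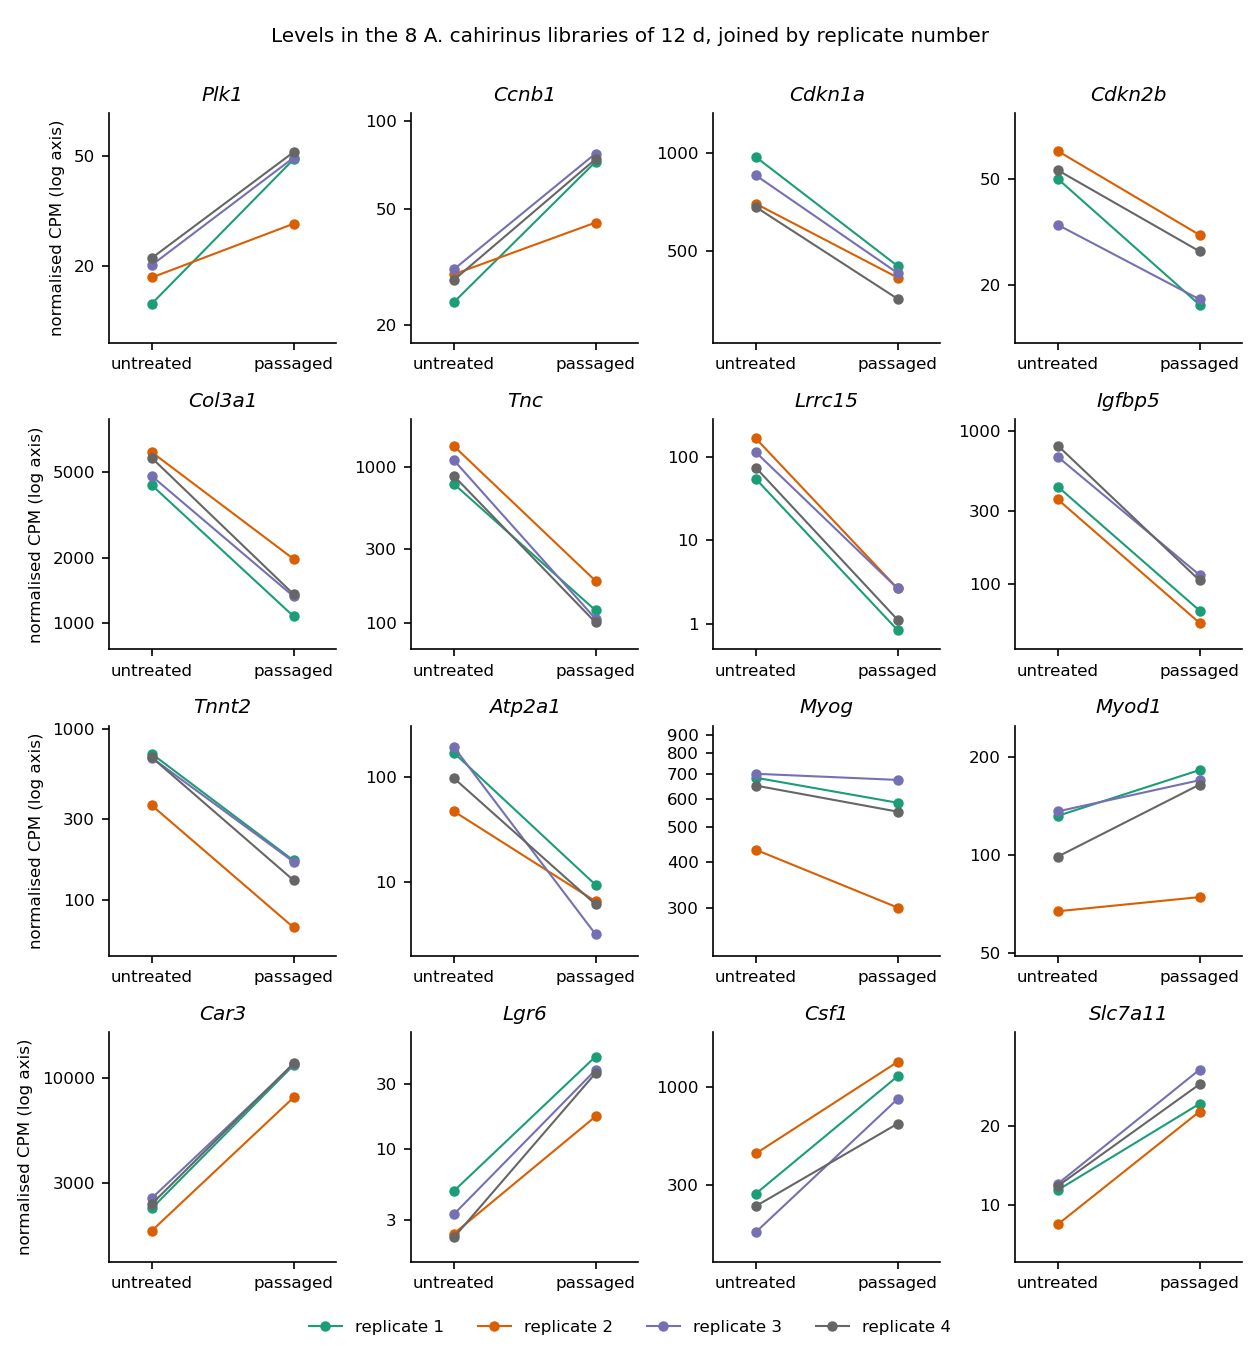
Normalised CPM (log axes) of 16 genes in the 8 libraries, with lines joining the untreated and passaged library of each replicate number. Cell cycle, matrix, muscle and stress genes change in the same direction in the 4 pairs, and replicate 2 (orange) is the lowest library for Myog, Myod1, Tnnt2 and Car3.

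Targets of p53 and genes of growth arrest did not move as one. Of 21 p53 targets 6 were higher and 9 lower, with a median of -0.16, and 4 and 5 without the block. Besides Cdkn1a, the falls included Trp53inp1 (-1.08), the death gene Bbc3 (-1.04) and Phlda3 (-0.49). Plk2 rose from 59.6, 30.3, 49.2 and 54.2 to 115, 84.2, 115 and 104 CPM, a log2 fold change of 1.14 (SE 0.09 and adjusted p = 4.13e-05), and Mdm2, the p53 ligase, had a log2 fold change of 0.028 (SE 0.06 and adjusted p = 0.733). Of 22 growth arrest genes 12 were lower, among them Foxo4 (-0.78), Ccng2 (-0.72), Btg1 (-0.63) and Gas6 (-0.68), and 2 were higher, Klf4 (0.39) and Gas7 (0.49). Without the block 8 were lower and none higher, and the adjusted p of Gas6, Klf4 and Gas7 were 0.231, 0.0978 and 0.259.

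Collagen genes were mostly lower, those of high level included. Of 19 tested, 13 were lower and 1 higher, with a median log2 fold change of -0.60, and 8 were lower without the block. Col3a1, the fibrillar collagen of early scar (2:59112128-59150469), fell from 4332, 6148, 4771 and 5787 to 1076, 1979, 1329.8 and 1361 CPM, a log2 fold change of -1.89 (SE 0.08 and adjusted p = 4.12e-06). Col1a1 and Col1a2 of the main fibrillar collagen fell far less (-0.46 and -0.47). The 3 chains of the collagen VI microfibril fell together, Col6a1 by 1.61, Col6a2 by 1.70 and Col6a3 by 1.26 on the log2 scale. Col16a1 had a log2 fold change of -1.86 (SE 0.11 and adjusted p = 1.05e-05), and Col15a1 was the member that rose (0.77). The chains of collagen V that seed fibrils, Col5a1 and Col5a2, had log2 fold changes of 0.072 (SE 0.07 and adjusted p = 0.434) and -0.029 (SE 0.07 and adjusted p = 0.742).

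Glycoproteins and proteoglycans of the matrix were mostly lower too. Of 31 tested, 21 were lower and 5 higher, with a median log2 fold change of -0.77, and 12 were lower and none higher without the block. Tnc, a tenascin of wounds and tendon (2:130069764-130155333), fell from 776, 1352, 1099 and 872 to 121, 187, 107 and 101.5 CPM, a log2 fold change of -3.0 (SE 0.11 and adjusted p = 2.35e-06), and its relative Tnn fell by 2.69. The small leucine-rich proteoglycans Dcn, Lum and Ogn had log2 fold changes of -1.78 (SE 0.17 and adjusted p = 9.40e-05), -1.98 (SE 0.19 and adjusted p = 0.000103) and -1.70 (SE 0.22 and adjusted p = 0.000444). Their groups overlapped, with replicate 2 high in both (Dcn 2708 untreated and 1079 passaged, against 316, 251 and 166 in the other passaged libraries), and without the block their adjusted p were 0.104, 0.144 and 0.1. Thbs1, a thrombospondin that activates TGF-beta, and Fmod were among the genes that rose (0.42 and 0.46), with adjusted p of 0.545 and 0.162 without the block and 0.129 for Thbs1 without replicate 3. Fn1 and Postn, abundant adhesive glycoproteins, missed the threshold with log2 fold changes of -0.19 (SE 0.07 and adjusted p = 0.0628) and 0.078 (SE 0.07 and adjusted p = 0.412).

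Enzymes that mature or cut the matrix moved both ways. Loxl1 and Loxl3, which cross-link collagen and elastin, fell (-1.32 and -1.17), whereas Lox of the same family and the lysyl hydroxylase Plod2 rose (0.41 and 0.59). For Lox the adjusted p without the block was 0.158. Of 21 matrix proteases and inhibitors 14 were lower and 4 higher, against 7 and 2 without the block. Adamts5, which cuts proteoglycans, and the inhibitor Timp1 fell (-1.14 and -0.74). The urokinase receptor Plaur rose from 10.2, 10.9, 11.8 and 12.2 to 20.8, 16.9, 21.5 and 25.4 CPM, a log2 fold change of 0.89 (SE 0.09 and adjusted p = 0.00016).

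Ligands and binding proteins of the IGF system, which drives growth of muscle and connective tissue, were mostly lower. Of 13 IGF genes 8 were lower and 2 higher, with a median log2 fold change of -0.86, and 6 and none without the block. The ligands Igf1 and Igf2 fell from 42.5, 62.2, 32.2 and 30.2 to 4.58, 22.8, 6.57 and 4.01 CPM and from 2215, 1097, 2409 and 2109 to 651, 294, 620.0 and 764 CPM, log2 fold changes of -2.38 (SE 0.25 and adjusted p = 0.000179) and -1.77 (SE 0.09 and adjusted p = 6.26e-06). Igfbp5, a binding protein made by muscle cells and fibroblasts (2:31935615-31953179), fell from 433, 358, 679 and 804 to 67.1, 55.7, 115 and 106 CPM, a log2 fold change of -2.72 (SE 0.07 and adjusted p = 5.06e-07). The receptor Igf1r had a log2 fold change of 0.73 (SE 0.05 and adjusted p = 2.36e-05), with an adjusted p of 0.0514 without the block. Igfbp3 had a log2 fold change of -0.86 (SE 0.24 and adjusted p = 0.0168), but in replicate 4 it was higher after passage, and its adjusted p was 0.0666 without replicate 1, 0.0607 without replicate 3 and 0.361 without the block.

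Of 21 WNT genes 15 were lower and 2 higher, with a median log2 fold change of -0.83, and 10 and 1 without the block. Axin2 and Nkd1, feedback inhibitors that WNT signalling itself induces, had log2 fold changes of -1.06 (SE 0.16 and adjusted p = 0.00111) and -1.09 (SE 0.08 and adjusted p = 2.69e-05), and the secreted antagonists Sfrp2 and Wif1 -2.06 and -0.93. Notum, an enzyme that inactivates WNT ligands, rose, from 0.887, 0.276, 1.0 and 0.262 to 6.93, 3.27, 10.3 and 7.28 CPM, a log2 fold change of 3.56 (SE 0.26 and adjusted p = 2.87e-05). Among other growth factors Fst, the activin and myostatin antagonist, fell from 30.9, 14.7, 39.1 and 38.8 to 2.42, 3.09, 2.97 and 2.96 CPM, a log2 fold change of -3.35 (SE 0.23 and adjusted p = 2.36e-05), and Hgf, which activates muscle stem cells, fell by 2.66. Inhba, the activin A subunit, and Vegfa rose (1.18 and 0.77). The TGF-beta ligands Tgfb1, Tgfb2 and Tgfb3 missed the threshold, with log2 fold changes of -0.10, -0.041 and 0.017.

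Skeletal muscle genes were grouped in 3 lists written after their values were seen, so their counts are descriptions. Of 32 genes of contraction and relaxation 27 were lower and none higher, with a median log2 fold change of -1.21, and 20 were lower without the block. Their summed level was 24523, 11518, 23000.2 and 22327 normalised CPM in untreated and 12585, 5387, 11859 and 10556 in passaged replicates 1 to 4. Each passaged library stood below its untreated partner, and replicate 2 was the lowest of each group. Without replicate 2, 27 genes were lower and 1 was higher.

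The falls differed in size between parts of the contractile apparatus. Tnnt2, the troponin T of heart and embryonic muscle (5:54184138-54202119), fell from 719, 359, 682 and 685 to 171, 69.2, 168 and 131 CPM, a log2 fold change of -2.21 (SE 0.08 and adjusted p = 2.32e-06). The light chain Myl1 and the perinatal myosin Myh8 had log2 fold changes of -2.12 (SE 0.09 and adjusted p = 3.01e-06) and -2.54 (SE 0.24 and adjusted p = 9.40e-05). Pvalb, a calcium buffer of fast fibres, fell from 378, 109, 345 and 167 to 24.6, 15.6, 25.7 and 22.2 CPM, a log2 fold change of -3.37 (SE 0.19 and adjusted p = 1.05e-05). The actins Actc1 and Acta1, by contrast, had log2 fold changes of -0.93 and -0.90, and for Actc1 the adjusted p without the block was 0.0785. Adult fast myosins Myh1 and Myh2 missed the threshold, with log2 fold changes of -0.12 (SE 0.14 and adjusted p = 0.516) and 0.27 (SE 0.14 and adjusted p = 0.158), as did Atp2a2, the calcium pump of slow muscle and other cells, with -0.086 (SE 0.05 and adjusted p = 0.202). The coding parts of the actins and of the clustered myosins are nearly identical within each family, so the split of reads between their members is uncertain.

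Of 11 regulators of the muscle lineage 1 rose and 7 fell, against 0 and 3 without the block. Myod1, which commits cells to muscle, was higher in the passaged library of each pair, from 132, 67.3, 136 and 98.9 to 182, 74.4, 169 and 164 CPM, a log2 fold change of 0.42 (SE 0.09 and adjusted p = 0.00508). Myog, which starts differentiation, was lower in each pair, from 685, 433, 702 and 652 to 584, 301, 675 and 552 CPM, a log2 fold change of -0.26 (SE 0.08 and adjusted p = 0.0214). In both genes the groups overlapped, and without the block their adjusted p were 0.321 and 0.541. Without replicate 1, the adjusted p of Myog was 0.0592. Pax7 and Myf5, of the muscle stem cell, had log2 fold changes of -0.66 (SE 0.10 and adjusted p = 0.00115) and -1.01 (SE 0.15 and adjusted p = 0.000847), with adjusted p of 0.133 and 0.171 without the block. Mef2c, a partner of these factors in differentiated fibres, fell from 619, 270.0, 629 and 485 to 224, 106, 219 and 199 CPM, a log2 fold change of -1.41 (SE 0.06 and adjusted p = 3.09e-06). The membrane proteins of myoblast fusion, Mymk and Mymx, had log2 fold changes of -0.92 (SE 0.05 and adjusted p = 9.91e-06) and -1.54 (SE 0.07 and adjusted p = 4.44e-06), and all 5 tested genes of the neuromuscular synapse fell, from -0.43 (Chrnb1) to -1.04 (Musk). Without the block Musk kept an adjusted p of 0.0354, and Chrna1, Chrnb1, Chrnd and Chrng missed the threshold at 0.0994, 0.0735, 0.191 and 0.219.

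The muscle transcripts moved with the groups and with the replicates, so their range stands beside the lists above. Summed contraction genes covered 11518 to 24523 CPM in untreated and 5387 to 12585 in passaged libraries, and summed fibroblast markers 32048 to 39165 and 20889 to 28255 CPM. Of 11 fibroblast markers 9 were lower and none higher, against 4 without the block. The part of either shift in the changes of cell cycle, matrix or growth factor genes was not tested.

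**Figure D3:**
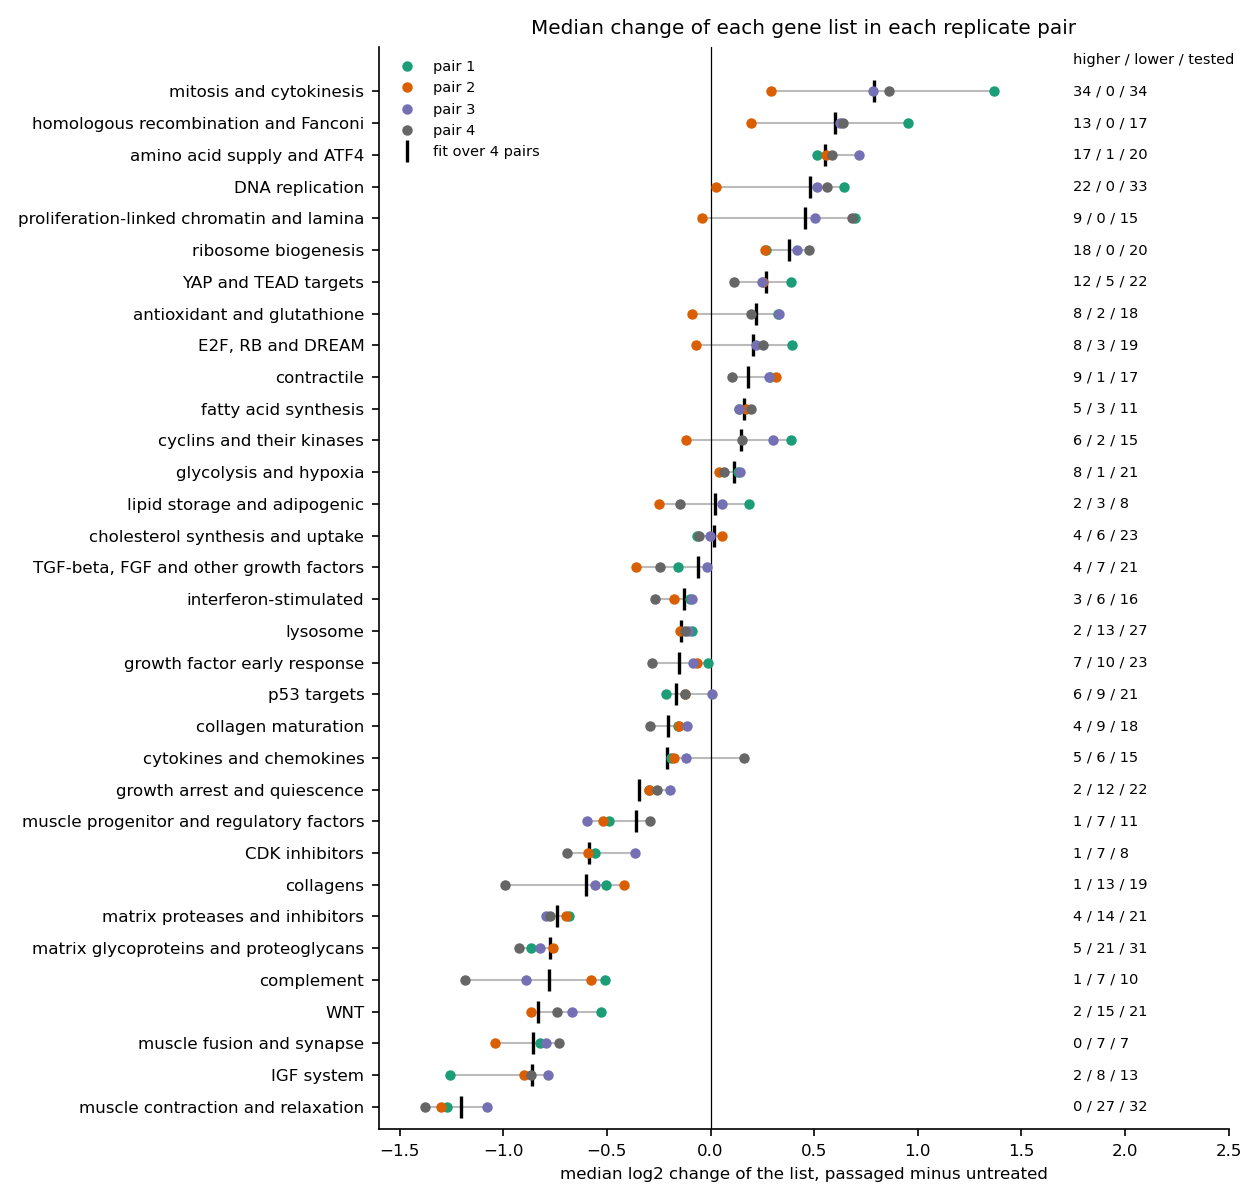
Median log2 change of each list, passaged minus untreated, in each of the 4 pairs (coloured points) and from the fit over the 4 pairs (black bars), with the number of genes higher, lower and tested at the right. Pair 2 lies closest to 0 for the replication and mitosis lists, whereas muscle contraction genes lie between -1.38 and -1.08 in all pairs.

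The size of the change was also compared between the pairs, as a description. The median change of the mitosis list was 1.37, 0.29, 0.79 and 0.86 in pairs 1 to 4, and that of the replication list 0.65, 0.027, 0.51 and 0.56. Pair 2 had the smallest change in both. For matrix glycoproteins the pairs gave -0.87, -0.76, -0.82 and -0.92, for collagens -0.50, -0.42, -0.56 and -0.99, and for muscle contraction -1.27, -1.30, -1.08 and -1.38. The medians over all genes tested lay between -0.038 and 0.004 in the 4 pairs.

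Biosynthetic genes rose with passage. Of 20 ribosome biogenesis genes 18 were higher and none lower, with a median log2 fold change of 0.38, and 10 passed without the block. Nop56, which guides methylation of ribosomal RNA, rose from 82.5, 72.4, 87.8 and 77.5 to 146, 112, 154 and 142 CPM, a log2 fold change of 0.79 (SE 0.06 and adjusted p = 2.53e-05). Of 20 genes of amino acid supply and the ATF4 response 17 were higher and 1 was lower, Pycr1 (adjusted p = 0.109 without the block), with a median of 0.55. The cystine importer Slc7a11 (7:91061384-91148627) rose from 11.4, 8.4, 12 and 11.8 to 24.2, 22.6, 32.7 and 28.8 CPM, a log2 fold change of 1.31 (SE 0.08 and adjusted p = 1.71e-05). Psph and Phgdh of serine synthesis rose by 1.22 and 0.90, the leucine importer Slc7a5 by 0.94 and the transcription factor Atf4 itself by 0.55. Asns, a classical ATF4 target, had a log2 fold change of 0.0 (SE 0.07 and adjusted p = 0.987).

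The lists of glycolysis and hypoxia, antioxidant, cholesterol and lysosome genes were divided, with 42.9% to 55.6% of members called beside 49.5% of all genes tested. Of 21 glycolysis and hypoxia genes 8 were higher, among them Pfkp (0.95) and the glucose transporter Slc2a1 (0.88, adjusted p = 0.0996 without the block), and 1, the muscle isoform Pfkm, was lower (-0.39), against 4 and 1 without the block. Thioredoxin reductase Txnrd1 and Srxn1 rose (0.95 and 0.81) in the antioxidant list, of which 8 of 18 were higher and 2 lower. Cholesterol synthesis was divided, with 4 of 23 higher and 6 lower (2 and 2 without the block). Of 27 lysosome genes 13 were lower and 2 higher, against 5 and none without the block, with Tfeb, a regulator of lysosome genes, at -1.02.

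Contractile cytoskeleton genes and targets of YAP and TEAD respond to cell spreading and stiffness. Among those past the threshold, more were higher than lower. Of 17 contractile genes 9 were higher and 1 lower (median 0.18), against 4 and none without the block, with Cnn1 rising from 119, 175, 109.8 and 119.7 to 204, 331, 203 and 203 CPM, a log2 fold change of 0.83 (SE 0.05 and adjusted p = 1.52e-05), and Flna by 0.66. Acta2, the actin of myofibroblasts and of immature muscle, had a log2 fold change of 0.18 (SE 0.09 and adjusted p = 0.12). Of 22 YAP and TEAD genes 12 were higher and 5 lower, against 5 and 3 without the block. Nuak2 and Dock5 had log2 fold changes of 1.16 (SE 0.08 and adjusted p = 1.72e-05) and 1.0 (SE 0.08 and adjusted p = 5.50e-05), and Ccn2 rose by 0.60 with an adjusted p of 0.299 without the block. The factors Wwtr1, Tead2 and Tead4 were among those that fell (-0.52, -0.58 and -0.61).

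Early response genes and secreted signals split by member. Egr1, a transcription factor induced by growth factors, fell from 101.4, 81.7, 115 and 122 to 30.2, 15, 26 and 35.3 CPM, a log2 fold change of -2.02 (SE 0.11 and adjusted p = 1.01e-05), and Egr2 and Egr3 fell too (-1.76 and -1.97). Fosl1 and the phosphatase Dusp5 rose (1.64 and 1.89). Of 23 early response genes 7 were higher and 10 lower, against 5 and 5 without the block. Csf1, the growth factor of macrophages, rose from 269, 441, 167 and 231 to 1140.1, 1361, 862 and 636 CPM, a log2 fold change of 1.88 (SE 0.14 and adjusted p = 2.95e-05), and its groups did not overlap. Lif rose by 0.96 and Ccl7 fell by 1.57, while Il6 had a log2 fold change of -0.21 (SE 0.17 and adjusted p = 0.343). Of 10 complement genes 7 were lower and 1 higher, against 3 and none without the block. Clu, a secreted chaperone, fell from 75.6, 67.4, 65.6 and 85.1 to 22.5, 22.8, 20.9 and 17.4 CPM, a log2 fold change of -1.81 (SE 0.11 and adjusted p = 1.53e-05). Of 16 interferon-stimulated genes 6 were lower and 3 higher, against 4 and 2 without the block.

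Some of these counts stand near the 49.5% of all genes tested that were called in either direction. The share called was 42.9% for glycolysis and hypoxia, 43.5% for cholesterol, 53.3% for cyclins, 55.6% for lysosome, 55.6% for antioxidant, 56.2% for interferon-stimulated, 57.9% for E2F and RB and 58.8% for contractile genes. Their counts are therefore given as descriptions of the named members and not as a change of the list.

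For several of these genes the passaged cultures stood nearer to untreated cultures of 24 h than to kept cultures of 12 d. The 24 h libraries carry another batch label than the 12 d libraries, so that the effects of time and of batch cannot be told apart. Levels are given side by side without a test, in CPM of total counts over 4 libraries. Lrrc15 ranged over 0.808 to 1.23 at 24 h, 0.861 to 2.72 in passaged and 54.5 to 157 in kept 12 d cultures, all unirradiated. Col3a1 ranged over 1179 to 1804, 1095 to 1907 and 4360.2 to 5857 in the same order. For both genes the passaged and the 24 h range overlapped and the kept range lay apart. The same order held for Tnnt2 (41.9 to 110.1, 66.7 to 174 and 342 to 724) and Car3 (6851 to 12758, 7679 to 12136 and 1648 to 2558). Mki67 differed from this, with 279.6 to 320.3 at 24 h, 72.2 to 137 in passaged and 49.3 to 69.4 in kept cultures, so the passaged libraries lay between the other groups. Irradiated 12 d cultures, which were not labelled as passaged, lay nearer to the kept ones in Col3a1 (3161 to 5899 at 10 Gy and 3325 to 5058 at 20 Gy) and in Tnnt2 (282 to 736 and 191 to 928). Other genes differed from this. At 20 Gy, Lrrc15 (17.3 to 38.5) lay between passaged and kept cultures. Csf1 at 20 Gy (589 to 1072) overlapped the passaged range (655 to 1312) and not the kept one (170 to 420). For Cdkn1a the order from low to high was passaged (366 to 457), kept (665 to 979), 10 Gy (1219 to 1728) and 20 Gy (1491 to 2404), and only the ranges of 10 and 20 Gy overlapped among these 12 d groups.

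**Figure D4:**
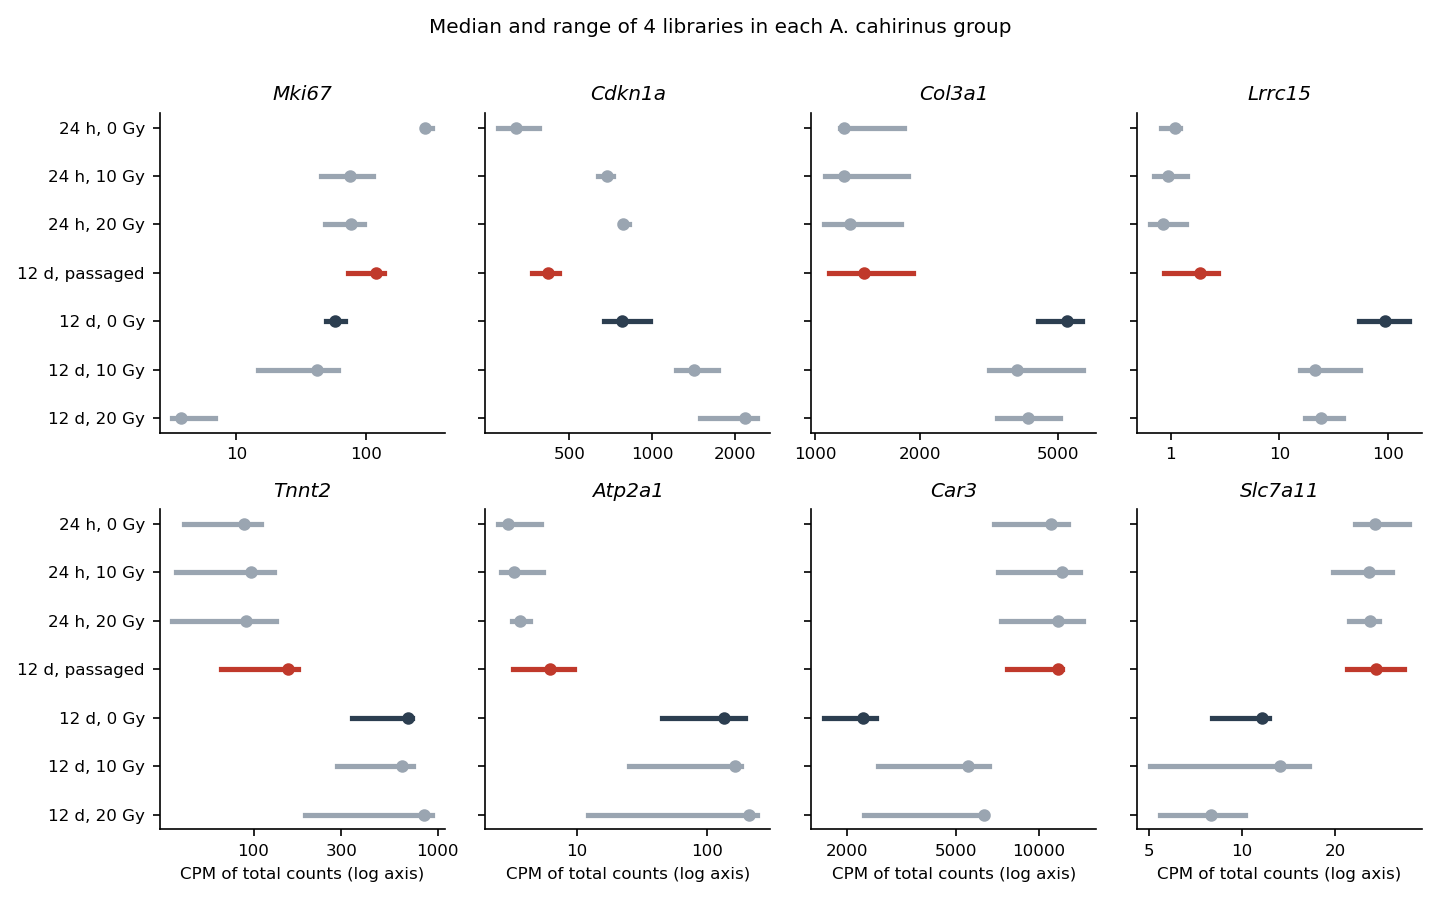
Median (point) and range (bar) over 4 libraries of 8 genes in the 7 A. cahirinus groups, in CPM of total counts (log axes). The passaged group (red) lies near the 24 h groups for Col3a1, Lrrc15, Tnnt2, Atp2a1, Car3 and Slc7a11, and between the untreated 24 h and 12 d groups for Mki67.

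The same 2 groups exist in both mouse populations, so the change with passage itself was compared between A. cahirinus and each of them by an interaction term with pairs as blocks, over symbols found in both tables. The filter on low counts was applied to the groups of both populations together, so genes expressed in the mice only, or in A. cahirinus only, could enter. A gene near the floor in A. cahirinus could show little change there, and such genes are part of the counts below. Against C56BL6 mice the change differed in 6112 of 13602 genes (44.9%), with 3019 higher and 3093 lower in A. cahirinus. Against wild mice it differed in 3208 of 13506 genes (23.8%). Without the block the counts were 3708 and 463, so the comparison with wild mice depends on the pairing. It also fell to 1134 without replicate 1 and to 1647 without replicate 4, and the comparison with C56BL6 fell to 3983 without replicate 3. Both comparisons share the 8 A. cahirinus libraries. The 9 keratinocyte markers summed to 2.97 to 987 CPM in the 8 C56BL6 and 1.78 to 3.25 in the 8 wild mouse libraries. The 6 skeletal muscle markers summed to 1943 to 4227 normalised CPM in untreated and 912 to 2883 in passaged A. cahirinus libraries. In mice they reached at most 0.0354 (C56BL6) and 0.226 (wild) CPM of total counts. Population and muscle transcript content therefore cannot be told apart in these comparisons. The part of keratinocytes or muscle cells in the differences was not tested.

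In fold change, proliferation genes rose less in A. cahirinus than in both mouse populations. The median log2 change of the mitosis list was 0.79 in A. cahirinus, 2.61 in C56BL6 and 2.55 in wild mice. The change was smaller in A. cahirinus for 30 of 34 genes against C56BL6 and for 23 of 34 against wild mice, with 1 and none in the other direction. Homologous recombination and Fanconi genes had medians of 0.60, 2.44 and 2.44, and 17 and 16 of 17 differed downward. Ribosome biogenesis genes differed downward in 19 and 12 of 20, beside 44.9% and 23.8% of all genes that differed in either direction. Mki67 covered 2.35 to 221 CPM of total counts in the 16 mouse libraries and 49.3 to 137 in the 8 A. cahirinus libraries. The part of the level in kept cultures in these smaller rises was not tested.

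Lysosome and complement genes, whose medians fell in mice, had smaller falls in A. cahirinus. Lysosome genes had medians of -0.14 in A. cahirinus, -0.78 in C56BL6 and -0.70 in wild mice, and 19 and 17 of 27 genes differed upward and 1 and 0 downward. Complement genes had medians of -0.78, -4.28 and -2.73, with 9 and 7 of 14 differing upward and 1 in each comparison downward. The fit of A. cahirinus alone tested 10 complement genes, so some of the 14 were near the floor in A. cahirinus. Collagens had medians of -0.60, -0.23 and -0.68, and of 19 genes 5 differed upward and 6 downward from C56BL6, and 1 upward and 3 downward from wild mice. Of all genes, 44.9% and 23.8% differed in either direction, so the collagen counts against wild mice are given as a description. Of 23 cholesterol genes 9 differed upward and 3 downward against C56BL6, and 0 upward and 14 downward against wild mice.

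Single genes with the largest differences in change are given by the same rule in both comparisons. Against C56BL6, Ism1 and Scara5 were among the genes that differed most upward, and Fgd3, Acta1 and Cobl differed most downward. Scara5, a scavenger receptor, stood at 11.7 ± 7.17 CPM in untreated and 5.37 ± 4.46 in passaged A. cahirinus cultures and at 67.3 ± 55.9 and 0.315 ± 0.112 in C56BL6 (SD, n = 4), a difference in log2 change of 6.38 (SE 0.42 and adjusted p = 6.41e-06). Acta1, the skeletal muscle actin, fell in A. cahirinus and rose in C56BL6 from 6.12 ± 1.05 to 116 ± 35.8 CPM, a difference of -5.10 (SE 0.27 and adjusted p = 1.71e-06). Its level in passaged C56BL6 cultures stayed far below that of the A. cahirinus cultures (1190.3 ± 224 CPM). Against wild mice, Col8a2, Lgr5 and Gdf10 differed most upward and Cck, Adamts9 and Fgd3 most downward. Gdf10 rose in A. cahirinus from 2.98 ± 1.27 to 17.1 ± 2.97 CPM and fell in wild mice from 45.6 ± 35.5 to 6.94 ± 5.38 CPM, a difference of 5.39 (SE 0.46 and adjusted p = 0.000185). The muscle regulators Myod1 and Pax7 did not exceed 0.0354 CPM of total counts in the mouse libraries, so their changes are not set side by side.

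**Figure D5:**
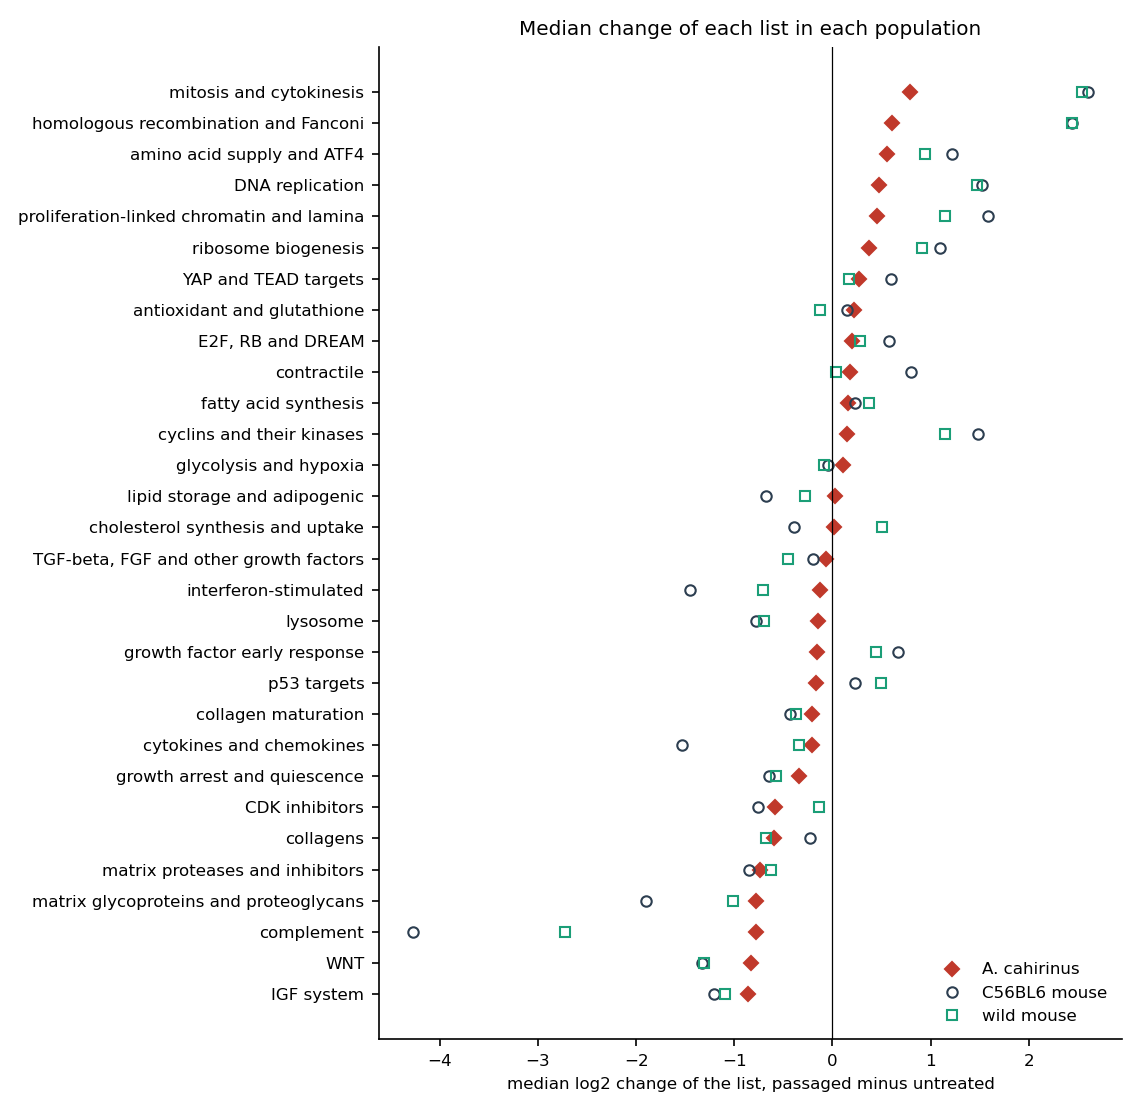
Median log2 change with passage of each list in A. cahirinus (red diamonds), C56BL6 mice (circles) and wild mice (squares), over the members tested in each population. Mitosis and Fanconi lists reach 2.44 to 2.61 in both mouse populations and 0.60 to 0.79 in A. cahirinus, and the IGF and WNT lists fall in all 3.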

How the data were processed

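RNA of the A. cahirinus and mouse cultures was sequenced, and the authors deposited a table of raw counts per gene for each species. Trim Galore, HISAT2 and featureCounts are named in the submitters' processing notes. Per the file headers, featureCounts 2.0.3 counted reads on Ensembl release 108 annotation of AcoCah2 or GRCm39 with no strand setting, and each gene's deposited Length (another unit, in bases) stands beside its counts and served only for description.

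Groups came from the labels, and the members and lists were chosen with earlier results of these data known. The lists on muscle were written after the values were seen. The 8 libraries were fitted alone in edgeR 4.0.16 (quasi-likelihood, filterByExpr, TMM scaling) with the replicate number as a block, because both groups' library names share a code for each number. Deviations from the group mean correlated at 0.42 to 0.79 (mean 0.58) between libraries of the same number and at -0.60 to 0.30 (mean -0.16) between different numbers. The change with passage was compared with that in C56BL6 and wild mice by an interaction term over 18109 shared symbols, with the same block. Of 56980 mouse gene IDs, 56236 matched a symbol. In all fits p-values were adjusted after Benjamini and Hochberg, with a threshold of 0.05. Columns of the A. cahirinus table with no sample numbered 0.

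Genes were named by a rule: the 10 largest changes in each direction among called genes that averaged 5 CPM or more and had 1 sign in 4 pairs, then for each list the 2 called members with the largest absolute change that averaged 1 CPM or more and others that carry a named role, a panel of cell cycle, matrix and secreted genes, and for each comparison with mice the 3 largest differences in each direction. Genes with only a model name or ID were skipped (65). Members named for their role were picked after their values were seen. Alternatives were RLE, upper-quartile and total-count scaling, no filter on low counts, DESeq2 1.42.0, no block, all 12 d groups in one fit, and each replicate left out. The depth of 25.6 to 34.5 M counts puts 3 counts at no more than 0.115 CPM, which covers counting error only. On simulated counts for 12992 genes the paired test recovered 92% of 1.5-fold, 93.9% of 2-fold and 100% of 4-fold changes, with 2.6% of calls false, and the unpaired test recovered 0%, 50% and 100%. The interaction test against C56BL6 recovered 52.1%, 96.4% and 100% over 11435 genes with 8.38% of calls false, and against wild mice 54.4%, 97.6% and 100% over 11304 genes with 4.97% false. In the first simulation 75, 66 and 56 genes had these changes and 12795 had none, whereas 49.5% of genes were called in the data. All simulations used a fixed dispersion and gave each pair the same change, whereas the pairs of the data differed. The shares therefore describe the simulated setting only. Some genes that this rule names are not reported here.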

Additional observations from a re-analysis of the deposited data

Results flagged for a closer look

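Replicate 2 stood apart from the other 3 libraries of its group in many genes. A gap larger than Dixon's 95% critical value was found in 33 of 290 groups of 4 libraries examined, where chance flags about 1 in 20 (14.5), and in 31 of the 33 the library was replicate 2. The groups are not independent, as genes of one list move together.

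For skeletal muscle genes replicate 2 was the low library. In untreated cultures it held 2943 CPM of Actc1 (5876 to 6308 in the others), 359 of Tnnt2 (682 to 719), 285 of Mybph (609 to 614), 204 of Chrnd (361 to 380.3) and 218 of Chrng (381 to 404). In passaged cultures it held 1344 CPM of Actc1, 404 of Des, 209.7 of Tnni1, 21.1 of Tnni2, 8.20 of Myh2, 74.4 of Myod1 and 47.7 of Chrnb1. Car3 was low in the same passaged library at 7967 CPM (11535 to 11783 in the others). So were the cell cycle genes Anln (121 CPM, against 184 to 189), Plk1 (28.4, against 48.4 to 51.4) and Ccnb1 (44.9, against 72.6 to 77.6).

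For several matrix genes replicate 2 was the high library of its group. Passaged replicate 2 held 339 CPM of Col16a1 (139 to 168 in the others), 158 of Adamts2, 18.3 of Ctsk, 4.10 of Col23a1, 0.863 of Aspn and 22.8 of Igf1 (4.01 to 6.57 in the others). In untreated cultures, by contrast, replicate 2 was the lowest library for Col23a1 (27.1 CPM, against 49.4 to 59.2) and Col1a1 (8795, against 9310.0 to 10970.2). It was high in Cnn1 in both groups, with 175 CPM untreated and 331 passaged, and in the passaged group in the fat cell genes Pparg (7.76) and Lpl (7.73). In untreated cultures it held 3315 CPM of Ccn2, 1216 of Slc2a1, 331 of Pfkp, 4.88 of Mmp13 and 4.02 of Ifih1. Outside replicate 2, untreated replicate 3 was high in Dkk2 (5.53 CPM) and passaged replicate 4 low in Mybpc1 (0.0704 CPM).

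The change with passage differed between A. cahirinus and C56BL6 mice, by the interaction term, in Ism1 (6.55, A. cahirinus minus C56BL6 on the log2 scale), Scara5 (6.38), Fgd3 (-5.14), Acta1 (-5.10) and Cobl (-4.59). It differed between A. cahirinus and wild mice in Col8a2 (6.76), Lgr5 (6.34), Gdf10 (5.39), Cck (-5.36), Adamts9 (-4.83) and Fgd3 (-3.70). Without the replicate block Fgd3 lost the threshold in both comparisons and Cck in the second.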

How the results depend on the processing

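Without the replicate block, passaged and untreated A. cahirinus cultures differed in 3348 genes (1575 higher, 1773 lower). For the differences from C56BL6 mice that fit gave 3708 genes (1904 higher, 1804 lower, 706 of them lower by at least 2-fold), and for those from wild mice 463 (272 higher, 191 lower, with 150 and 97 at least 2-fold). Leaving out each replicate in turn gave 4446 to 6357 genes for passage (1953 to 3134 higher, 2493 to 3223 lower), 3983 to 5881 against C56BL6 (1896 to 2842 higher) and 1134 to 3104 against wild mice (498 to 1466 higher, 636 to 1638 lower, 310 to 536 and 368 to 568 at least 2-fold). Without replicate 4 the last comparison gave 1647 genes, 860 higher and 787 lower. The cause was not tested. DESeq2 called 5934 genes of the passage comparison. The share of called genes that were higher was 46.9%, 51.5% with upper-quartile and 50.7% with total-count scaling. Of 144 single genes examined, none reversed under the alternatives run, 35 lost the threshold without the block and 6 with all 12 d groups in one fit. Single genes that lost it when a replicate was left out numbered 6, 1, 7 and 3 for replicates 1 to 4. Depth limits genes near 3 counts, such as Mybpc1 in passaged libraries.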

Other observations

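A few lists and genes were not described above. Of 11 genes of fatty acid synthesis 5 were higher and 3 lower after passage, with a median log2 fold change of 0.16, and without the block 1 and none. The desaturase gene Fads2 had a log2 fold change of 0.77 (SE 0.11 and adjusted p = 0.000777) and the acetyl-CoA synthetase gene Acss2 one of -0.77 (SE 0.18 and adjusted p = 0.00914), and without the block their adjusted p were 0.0735 and 0.0542. Without replicate 1, that of Acss2 was 0.052. Pparg, the regulator of fat cells, was higher after passage in the 4 pairs, from 1.26, 2.42, 1.18 and 0.961 to 2.54, 7.76, 2.70 and 1.83 CPM, a log2 fold change of 1.24 (SE 0.19 and adjusted p = 0.00108), and the adjusted p without the block was 0.0816.

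Bst2, an interferon-induced membrane protein, fell from 8.67, 7.88, 8.30 and 6.29 to 2.89, 2.19, 2.28 and 2.15 CPM, a log2 fold change of -1.71 (SE 0.13 and adjusted p = 2.95e-05), and its groups did not overlap. Hmox1, the heme oxygenase of the antioxidant list, had a log2 fold change of 1.13 (SE 0.23 and adjusted p = 0.00445), with 132 CPM in untreated replicate 2 against 55.4, 32.8 and 31.5 in the other untreated libraries and 104, 158, 128 and 87.3 in the passaged ones. Its adjusted p without the block was 0.169.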
